A study of Homo sapiens with 9 samples.

Results

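SPRY4 is one of 20 genes whose promoters were used as viewpoints for Capture-C in HCT-116 MED14-dTAG cells. Capture-C measures how often DpnII restriction fragments across the genome are ligated to a chosen promoter fragment. All listed fragments on chromosome 5 within 500 kb of the annotated start of SPRY4 were taken, which gave 2563 fragments of the 47189 that lie within 500 kb of the 20 viewpoints. SPRY4 (ENSG00000187678.10) lies on the minus strand at chr5:142310427-142326455 in hg38, so that upstream of its start means higher coordinates. The libraries form 3 groups of 3. The dTAG+I-BET cells received 0.5 μM dTAG ligand for 2 h and 1 μM of the BET inhibitor I-BET 151 for 90 min, the dTAG cells received 0.5 μM dTAG ligand for 2 h, and the DMSO cells received solvent. All 9 libraries come from the same colorectal carcinoma line, in which the Mediator subunit MED14 carries a tag for ligand-induced degradation. No library had I-BET without dTAG ligand, so an effect of I-BET on cells with intact Mediator was not analyzed here. The study describes the 3 samples of a group as biologically independent, but the column names carry the letters TR, which the sources used here do not explain. If these libraries are technical replicates, the SDs and p-values below measure only technical spread.

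SPRY4 encodes a Sprouty protein, a feedback inhibitor of receptor tyrosine kinase signaling through the Ras–ERK pathway. Mediator is a large coactivator complex that links transcription factors at enhancers with RNA polymerase II at promoters, and MED14 is its central scaffold. Cohesin is the ring-shaped complex that extrudes chromatin loops, which are often held at CTCF-binding sites. BET proteins bind acetylated histones at active promoters and enhancers, and I-BET displaces them.

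Distances are from the start of the gene record at 142326455. A run of 3 neighboring DpnII fragments at chr5:142323751-142325451, just inside the gene record, had no listed values, and the captured fragment is not named in the sources used here. The RefSeq promoter of SPRY4 (GRCh38.p14) lies within the largest of these fragments, which is 1067 bp long. Its 250 bases before the RefSeq start (chr5:142324248-142324497, minus strand) are shown as the promoter whose contacts are described. It is followed by the middle of the only site near SPRY4 that lost cohesin in the study (chr5:142645078-142645227, plus strand). Neither sequence holds GATC, the sequence cut by DpnII, which would be in capitals.
SPRY4 promoter: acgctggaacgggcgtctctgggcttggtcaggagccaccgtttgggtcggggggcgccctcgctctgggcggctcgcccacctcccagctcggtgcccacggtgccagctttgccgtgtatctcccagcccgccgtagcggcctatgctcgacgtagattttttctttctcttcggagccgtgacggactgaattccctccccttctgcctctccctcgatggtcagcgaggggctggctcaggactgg
middle of the cohesin-lost site: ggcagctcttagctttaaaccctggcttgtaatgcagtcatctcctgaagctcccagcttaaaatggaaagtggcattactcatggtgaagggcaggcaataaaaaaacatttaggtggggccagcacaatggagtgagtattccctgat

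The 300-base RefSeq promoter of SPRY4 held no GATC, which 41.7% of the 35116 RefSeq promoters in the table held. It also held no match to AGNGGGCGC on either strand, part of the consensus bound by CTCF, which occurred in 4.27% of these promoters. Within 500 kb of SPRY4 the letters AGNGGGCGC occurred 21 times. They were found in 15 of the 98 SPRY4 bins of 10 kb (15.3%) and in 6.43% of the bins of all 20 viewpoints. None lay in the bin 220 to 230 kb upstream. Only the matches between 250 and 400 kb upstream are shown. This stretch was chosen because the SPRY4 signal declines there and several values described below differed between groups. The other matches lie on both sides of SPRY4. Among them are those 11.37, 11.63 and 12.04 kb downstream, in the band 10 to 50 kb downstream, where values described below also differed. Whether CTCF binds at any match, or bears on the signal or on group differences, was not tested. The matches shown are given with the 10 bases before them and with the match in capitals, in the direction of the match.
match 261.1 kb upstream, chr5:142587556-142587564, plus strand: gtttgtcagtAGAGGGCGC
match 264.5 kb upstream, chr5:142590998-142591006, plus strand: tggaggcagcAGTGGGCGC
match 329.4 kb upstream, chr5:142655864-142655872, plus strand: cgcagccagaAGAGGGCGC
match 352.1 kb upstream, chr5:142678552-142678560, minus strand: ggaaaggggcAGAGGGCGC
match 363.4 kb upstream, chr5:142689842-142689850, minus strand: caggcgtggtAGCGGGCGC
match 386.8 kb upstream, chr5:142713278-142713286, plus strand: agcggccagcAGGGGGCGC

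The SPRY4 viewpoint had 22420 to 47727 interactions on chromosome 5 in a library (median 27417), and 36.1% to 42.0% of all its interactions were with other chromosomes. Deposited signals are interaction numbers scaled to about the same total on the viewpoint's chromosome, 949222 to 957461 at SPRY4, and is given below per kb of sequence. A 10-kb bin held 6 to 1429 interactions in a library (median 101). Across the 98 bins, the Pearson correlation of log2 signals between libraries was 0.956 to 0.983 within groups (9 pairs) and 0.935 to 0.983 between groups (27 pairs). Bins share the decay with distance, and are no replicates.

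One library stood apart. In dTAG replicate 3, 50.01% of the SPRY4 signal on chromosome 5 lay beyond 500 kb, against 38.9% and 39.7% in the other dTAG libraries, 35.2% to 37.6% in the dTAG+I-BET libraries and 37.5% to 40.7% in the DMSO libraries. This library had the highest such share at all 20 viewpoints. Its signal closer to SPRY4 was low, for example 1091 per kb at 10 to 50 kb upstream, against 1827 and 1791 in the other dTAG libraries. Values that this library moved strongly are also given without it below.

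In DMSO cells, SPRY4 contacts decayed with distance on both sides but extended further upstream. Between 10 and 50 kb the signal was 1794, 1727 and 1422 per kb upstream and 1685, 1673 and 1699 per kb downstream, so that both sides were alike within the spread of the libraries. Between 200 and 300 kb it was 660, 641 and 662 per kb upstream and 212, 185 and 189 per kb downstream, with no overlap. At this distance, upstream of SPRY4 ranked 6th of 40 viewpoint sides, at 2.64 times their median of 248 per kb. Downstream of SPRY4 ranked 25th. Beyond 400 kb the upstream and downstream means of 135 and 102 per kb were 1.02 and 0.774 times the median of 40 sides.

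The upstream contacts peaked inside SPRY4-AS1, a long noncoding RNA gene that starts 1.25 kb from SPRY4 on the opposite strand and extends to chr5:142672001. The bin 220 to 230 kb upstream (chr5:142546456-142556455) had 1260, 1236 and 1095 per kb in the DMSO libraries. Its mean of 1197 ± 89 (SD, n = 3) was 4.0 times the median of the other 19 viewpoints at the same distance and the highest of 40 sides. The bin lies in an intron of SPRY4-AS1 and overlaps none of its annotated exons. The next highest ratios, 3.34, 3.03, 2.63 and 2.57, were found 210 to 220, 230 to 240, 260 to 270 and 200 to 210 kb upstream, so that 4 of the 5 bins that stood furthest above the other viewpoints were neighbors. These ratios are a description, as each viewpoint gives 1 value at a distance.

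Signal declined in a step near the far end of this domain. The DMSO mean was 500 per kb at 280 to 290 kb upstream and 274 per kb at 290 to 300 kb, within FGF1, the gene of a fibroblast growth factor. Downstream, a lesser peak lay 160 to 170 kb from the start, beyond the 3′ end of NDFIP1, the gene of an adaptor for Nedd4-family ubiquitin ligases. It had 772 per kb in DMSO, 2.02 times the median of the other viewpoints, and the mean was 312 per kb at 180 to 190 kb. The plot of signal by distance shows both peaks in all 3 groups.

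**Figure D1:**
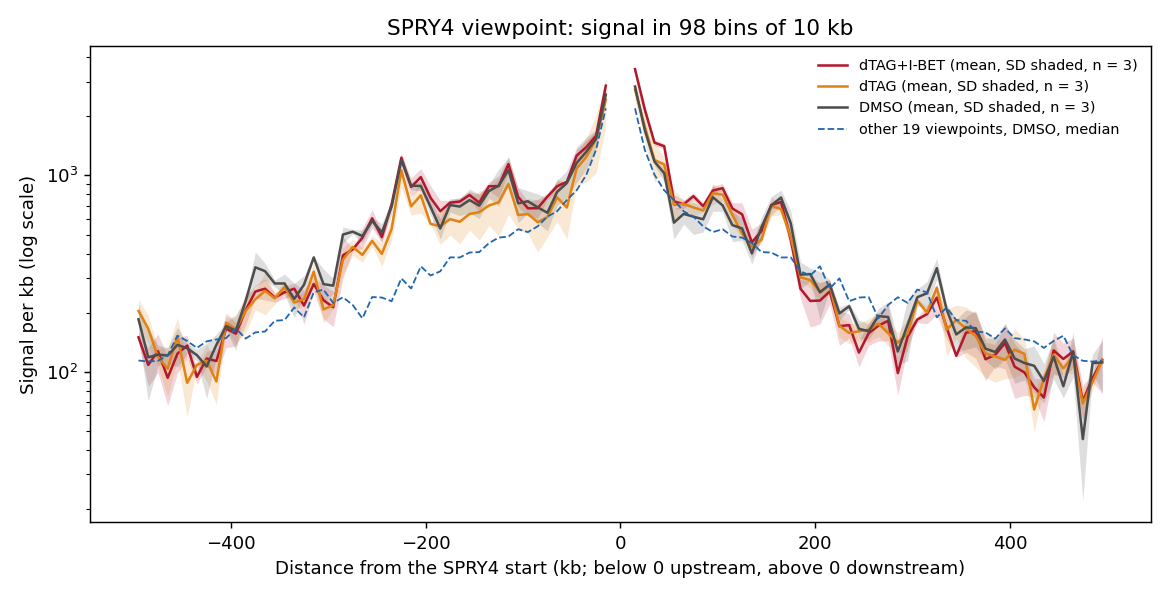
Mean signal per kb (log scale) in 98 bins of 10 kb against distance from the SPRY4 start in kb, for dTAG+I-BET, dTAG and DMSO cells (lines; shading, SD of 3 libraries), with the DMSO median of the other 19 viewpoints (dashed). The 3 groups share the peak 220 to 230 kb upstream, at 1230, 1060 and 1197 per kb, and lie close to each other over most of the range.

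**Figure D2:**
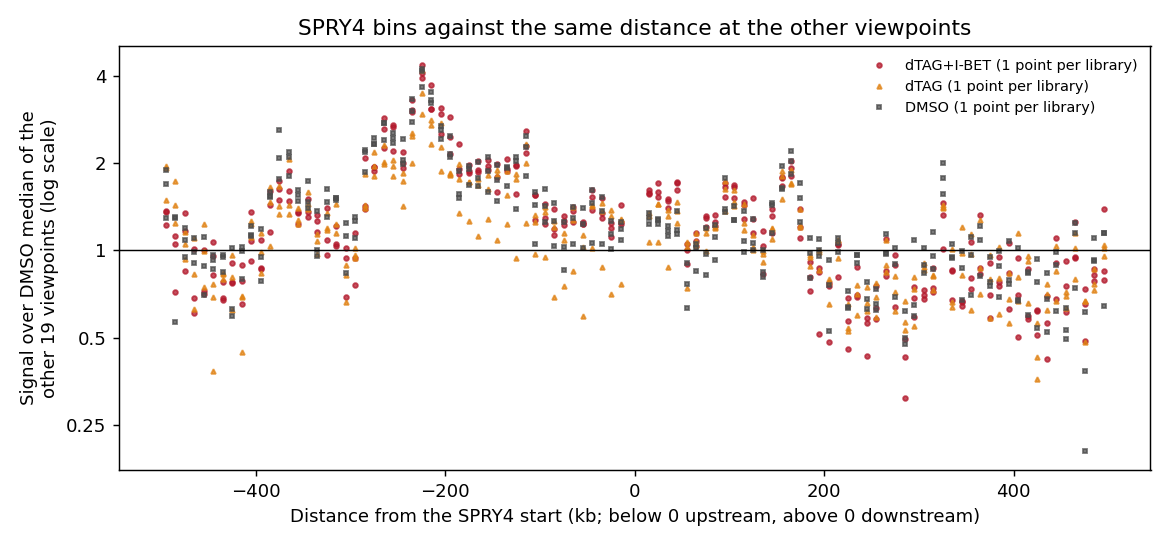
Signal of each SPRY4 bin in each library divided by the DMSO median of the other 19 viewpoints at the same distance (log scale), against distance in kb; each point is a bin in 1 library. Points stand furthest above 1 about 200 to 270 kb upstream, with a DMSO mean of up to 4.0, and lie mostly below 1 beyond 180 kb downstream.

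The first question was whether Mediator depletion changed contacts of the SPRY4 promoter. With limma across the bins of all viewpoints, dTAG and DMSO differed at an adjusted p under 0.05 in 0 of the 98 SPRY4 bins, where 1.58% of all bins passed. In SPRY4 bins, limma gave 11 unadjusted p under 0.05. With edgeR, 0 SPRY4 bins passed and 13 had an unadjusted p under 0.05, which was not counted over all bins. The fitted log2 ratio of dTAG over DMSO had a median of -0.11 over the SPRY4 bins and of -0.07 over all bins. Upstream, 42 of 49 bins lay below 0 (median -0.24). Downstream, 28 of 49 did (median -0.04).

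The dTAG and DMSO libraries did not overlap, with dTAG lower, in 19 SPRY4 bins (19.4%), 15 of them upstream, where this held for 10.1% of all bins. They did not overlap, with dTAG higher, in 1 SPRY4 bin (1.02%), where this held for 6.28% of all bins. Without dTAG replicate 3, the median log2 ratio was -0.07 over the upstream bins, of which 35 of 49 lay below 0, and -0.04 over the downstream bins, of which 27 of 49 did, and again 0 bins passed. The low ratios within 200 kb upstream depended on whether this library entered the fit. The ratios at 10 to 50, 50 to 100 and 100 to 200 kb upstream were -0.10, -0.24 and -0.23 with it and 0.14, -0.008 and -0.04 without it. DMSO replicate 3, which stayed in both fits, was also the lowest DMSO library there. It had 640 per kb at 50 to 100 kb upstream, against 858 and 789 in the other DMSO libraries. At 100 to 200 kb it had 652 per kb, against 834 and 790. Leaving out both libraries was not tested. Bins next to each other share contacts and are not independent.

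The bins with the lowest fitted ratios were weak contacts far from SPRY4. They were 420 to 430 kb downstream (log2 -0.72, SE 0.27, limma adjusted p = 0.213), 440 to 450 kb upstream in ARHGAP26 (-0.64, SE 0.25, adjusted p = 0.237) and 410 to 420 kb upstream in LINC01844 (-0.63, SE 0.24, adjusted p = 0.211). Their means were 64.3, 87.8 and 89.2 per kb in dTAG cells and 107, 132 and 137 per kb in DMSO cells. The bin in ARHGAP26 had a ratio of -0.34 without dTAG replicate 3. The highest ratios were 0.71 and 0.31 in 2 bins of PCDH1 and 0.56 in another bin of ARHGAP26, with adjusted p from 0.417 to 0.614.

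At the upstream peak, 2 of the 3 central bins had all dTAG libraries below DMSO, but no bin passed the test. The bin 220 to 230 kb upstream had 1254, 1045 and 881 per kb in dTAG cells and 1260, 1236 and 1095 per kb in DMSO cells (log2 -0.19, SE 0.16, adjusted p = 0.640). The groups overlapped in this bin, and without dTAG replicate 3 the ratio was -0.06. One bin closer to SPRY4 the values were 719, 749 and 618 per kb in dTAG cells and 851, 935 and 872 per kb in DMSO cells (-0.35, SE 0.15, adjusted p = 0.296). One bin further away they were 565, 578 and 457 per kb in dTAG cells and 759, 633 and 689 per kb in DMSO cells (-0.38, SE 0.15, adjusted p = 0.248). In these neighboring bins the groups did not overlap.

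**Figure D3:**
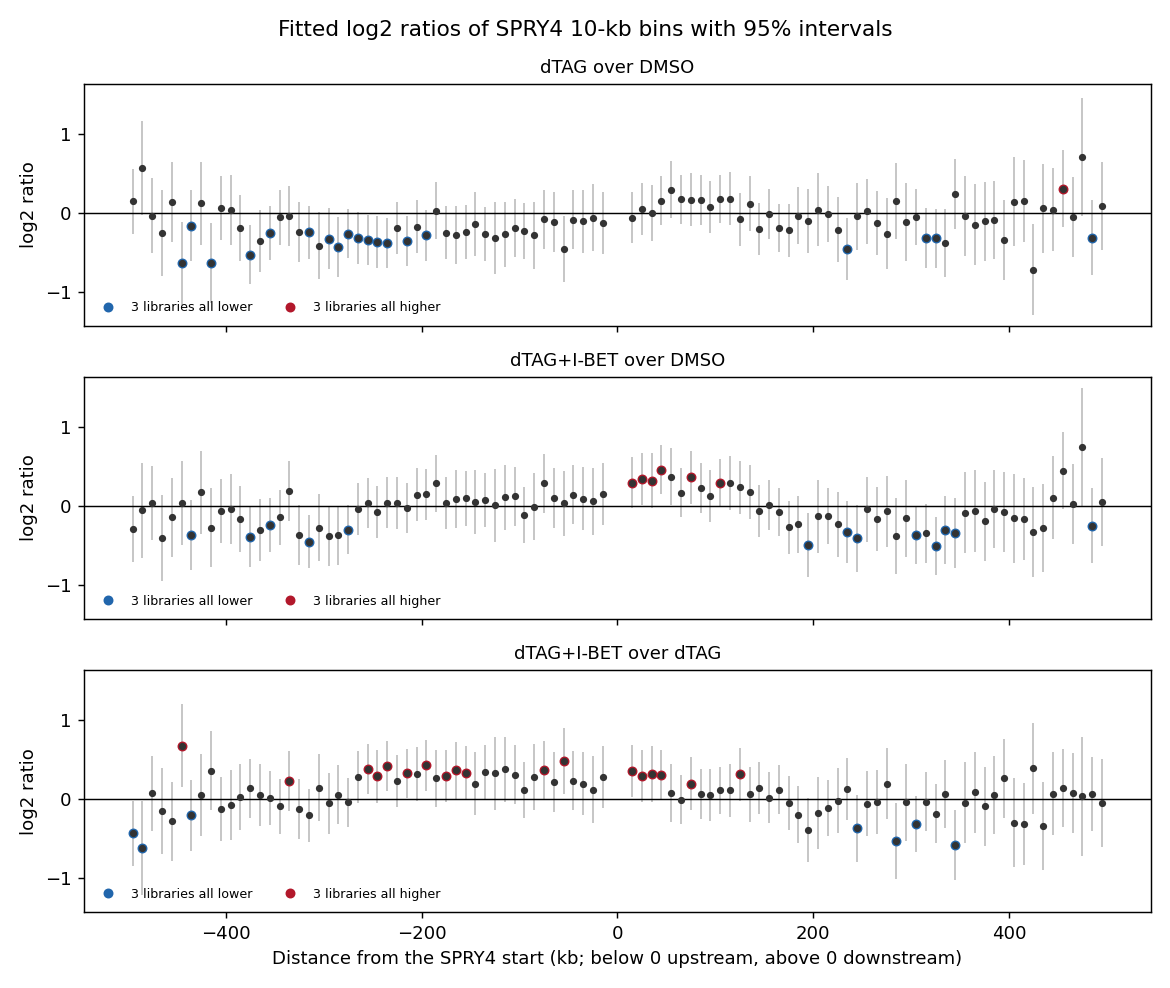
Fitted log2 ratio of signal for each of 98 SPRY4 bins of 10 kb against distance in kb, with 95% intervals from limma, for dTAG over DMSO, dTAG+I-BET over DMSO and dTAG+I-BET over dTAG; colored rims mark bins in which the 3 libraries of the first group all lay below (blue) or above (red) those of the second. No bin passed an adjusted p of 0.05, and 15 of the 19 bins marked low in dTAG over DMSO are upstream.

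Summing the signal over distance bands averages out counting noise. None of the 12 SPRY4 bands passed for dTAG over DMSO (0 of 12), where 4.17% of the 240 bands of all viewpoints did. An unadjusted limma p was under 0.05 in 2 of the 12 SPRY4 bands and in 42 of the 240. Both SPRY4 bands were upstream. At 300 to 400 kb upstream, which holds most of FGF1, the signal was 246, 228 and 233 per kb in dTAG cells and 284, 275 and 279 per kb in DMSO cells. Libraries of a group were close to each other, with no overlap between groups. The log2 ratio was -0.24 (SE 0.09, 95% interval -0.44 to -0.05, limma adjusted p = 0.154). Without dTAG replicate 3 it was again -0.24, with an SE of 0.06 and a limma adjusted p of 0.0306. The call thus depended on whether this library entered the fit, although its 233 per kb lay between the other dTAG values.

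At 200 to 300 kb upstream, which holds the main peak, the signal was 586, 551 and 472 per kb in dTAG cells and 660, 641 and 662 per kb in DMSO cells. The groups did not overlap here either. The log2 ratio was -0.29 (SE 0.11, 95% interval -0.53 to -0.06, limma adjusted p = 0.154), the 5th lowest of 40 sides, whose median was -0.09. It was -0.20 without dTAG replicate 3 (adjusted p = 0.0956). With totals from 10 to 1000 kb set equal between libraries it was -0.20 and passed (limma adjusted p = 0.0496).

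Downstream bands differed less between dTAG and DMSO cells. At 10 to 50 kb the means were 1712 ± 245 per kb in dTAG cells and 1686 ± 13 per kb in DMSO cells (SD, n = 3 each), with a log2 ratio of 0.01 (95% interval -0.24 to 0.26). It was 0.14 without dTAG replicate 3 (95% interval -0.005 to 0.28). Over all 12 bands, ratios ranged from -0.29 to 0.17. The log2 of upstream over downstream signal from 10 to 500 kb was 0.44, 0.37 and 0.07 in dTAG libraries and 0.64, 0.57 and 0.28 in DMSO libraries. This ratio is unaffected by how a library is scaled. The groups overlapped, and the difference of -0.20 did not pass an exact permutation test (two-sided p = 0.3, where 3 against 3 libraries cannot give less than 0.1). The difference was -0.09 without dTAG replicate 3, while DMSO replicate 3, the lowest DMSO library at 0.28, stayed in. The value of -0.09 thus compares sets of libraries that are not balanced by number. Between libraries of the same number it was -0.21, -0.20 and -0.20, for which a sign-flip permutation test gave the smallest p that 3 pairs allow, 0.25.

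The second question was what BET inhibition together with Mediator depletion did. For dTAG+I-BET over DMSO, 0 of 98 SPRY4 bins passed, where 4.9% of all bins did. Unadjusted, p was under 0.05 in 9 SPRY4 bins with limma and in 9 with edgeR, which also passed 0. The median log2 ratio was -0.04 over SPRY4 bins and 0.02 over all bins. All 3 dTAG+I-BET libraries lay above the DMSO libraries in 6 SPRY4 bins (6.12%), all downstream, and below them in 13 (13.3%). Of all bins, 15.1% were higher in this sense and 11.2% lower.

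Close to SPRY4 on the downstream side, which covers the 3′ part of the gene and the sequence beyond it, dTAG+I-BET cells had the higher values. At 10 to 50 kb downstream the signal was 2130, 2199 and 2065 per kb in dTAG+I-BET cells, 1879, 1827 and 1430 per kb in dTAG cells, and 1685, 1673 and 1699 per kb in DMSO cells. All dTAG+I-BET libraries lay above all others. The log2 ratio over DMSO was 0.34 (SE 0.11, 95% interval 0.09 to 0.58), with a limma adjusted p of 0.0902, where 7.5% of all bands passed. The ratio ranked 33rd from the lowest of 40 sides, which ranged from -0.06 to 0.80 with a median of 0.13. It passed without dTAG replicate 3 (limma adjusted p = 0.0016), a library that enters this ratio only through the shared estimate of the spread. It also passed when only the dTAG+I-BET and DMSO libraries were fitted (0.00427) and after rescaling (log2 0.28, adjusted p = 0.00811). The bin 40 to 50 kb downstream came closest to the threshold among single bins, with 1428, 1438 and 1359 per kb in dTAG+I-BET cells and 952, 983 and 1144 per kb in DMSO cells (log2 0.46, SE 0.15, adjusted p = 0.0983). All 4 bins from 10 to 50 kb downstream passed without dTAG replicate 3. The share of all bins that passed in that fit was not counted, and it was 4.9% with all libraries.

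Further away the dTAG+I-BET values were low. At 300 to 400 kb upstream the signal was 235, 238 and 238 per kb in dTAG+I-BET cells and 284, 275 and 279 per kb in DMSO cells, with a log2 ratio of -0.24 (SE 0.09, limma adjusted p = 0.113). The groups did not overlap. Without dTAG replicate 3 the adjusted p was 0.0121. At 300 to 400 kb downstream it was 157, 165 and 159 per kb in dTAG+I-BET cells and 178, 183 and 218 per kb in DMSO cells (log2 -0.26, SE 0.11, adjusted p = 0.183). At 200 to 300 kb upstream, dTAG+I-BET and DMSO cells had 639 ± 43 and 654 ± 12 per kb (SD, n = 3 each), with a log2 ratio of -0.04 (95% interval -0.27 to 0.20). The bin 220 to 230 kb upstream had 1175, 1298 and 1218 per kb in dTAG+I-BET cells, which overlapped the DMSO values above.

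Single bins with the lowest ratios of dTAG+I-BET over DMSO were 320 to 330 kb downstream in GNPDA1 (log2 -0.50, SE 0.18, limma adjusted p = 0.132), 190 to 200 kb downstream in NDFIP1 (-0.49, SE 0.19, adjusted p = 0.204) and 310 to 320 kb upstream in FGF1 and SPRY4-AS1 (-0.45, SE 0.16, adjusted p = 0.139). GNPDA1 encodes glucosamine-6-phosphate deaminase. The highest ratios besides the bin 40 to 50 kb downstream were 0.75 and 0.45 in the 2 bins of PCDH1 named above, which are among the weakest contacts, with adjusted p of 0.318 and 0.372.

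The third comparison set dTAG+I-BET against dTAG, and so bears on what I-BET added. None of the 98 SPRY4 bins passed, and 0% of all bins did. Unadjusted, p was under 0.05 in 14 SPRY4 bins with limma and in 10 with edgeR, which also passed 0. All 3 dTAG+I-BET libraries lay above the dTAG libraries in 18 SPRY4 bins (18.4%), 12 of them upstream, where this held for 10.7% of all bins. They lay below them in 7 (7.14%), where 3.16% of all bins did.

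Of the 12 SPRY4 bands 0 passed, as did 0% of all bands. An unadjusted limma p was under 0.05 in 3 SPRY4 bands and in 18 of all 240 bands. The highest ratios were at 100 to 200 kb upstream and 10 to 50 kb downstream, both 0.33. At 100 to 200 kb upstream the signal was 786, 805 and 836 per kb in dTAG+I-BET cells and 740, 724 and 500.1 per kb in dTAG cells, with an adjusted p of 0.610 (limma, SE 0.15). At 200 to 300 kb upstream the ratio was 0.26 (SE 0.11, adjusted p = 0.595). These upstream values were the highest of the 40 sides at their distance, while 10 to 50 kb downstream ranked 31st from the lowest (SE 0.11, adjusted p = 0.595). At 10 to 50 kb, the 40 sides ranged from 0.10 to 0.48 with a median of 0.26. Without dTAG replicate 3 the upstream ratios were 0.14 and 0.17, ranked 38th and 40th from the lowest, and 10 to 50 kb downstream was the highest SPRY4 band at 0.20 (limma adjusted p = 0.447). The bin with the third highest ratio lay 190 to 200 kb upstream, with 890, 662 and 757 per kb in dTAG+I-BET cells and 565, 569.9 and 563 per kb in dTAG cells (log2 0.43, SE 0.15, adjusted p = 0.713). There, dTAG replicate 3 was close to the other dTAG libraries. The 2 bins above it, 0.68 and 0.49, lay 440 to 450 kb upstream in ARHGAP26 and 50 to 60 kb upstream in SPRY4-AS1, and were 0.37 and 0.20 without dTAG replicate 3. The 3 lowest ratios, -0.62, -0.58 and -0.53, lay 480 to 490 kb upstream in ARHGAP26, 340 to 350 kb downstream in RNF14 and 280 to 290 kb downstream. With all libraries, each of these had an adjusted p of 0.713.

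The log2 of upstream over downstream signal was 0.36, 0.37 and 0.46 in dTAG+I-BET libraries. Its mean differed from dTAG by 0.10 (exact permutation two-sided p = 0.6) and from DMSO by -0.11 (p = 0.4). Without dTAG replicate 3 the difference from dTAG was -0.01, of opposite sign. In DMSO cells the mean of 0.50 ranked 12th of 20 viewpoints, whose range was -1.47 to 1.69. The downstream signal from 10 to 500 kb alone was 448, 464 and 446 per kb in dTAG+I-BET cells, 424, 430.3 and 387 per kb in dTAG cells and 399.7, 402 and 439 per kb in DMSO cells. The dTAG+I-BET libraries lay above all others, which gives the smallest exact two-sided p that this design allows, 0.1.

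The study listed peaks of the cohesin subunit SMC1A that changed with dTAG, from separate CUT&Tag libraries of the same line. Of 881 peaks that lost SMC1A, 1 lay 10 to 500 kb from the SPRY4 start, 318.7 kb upstream at chr5:142644953-142645353, where up to 15 lay around other viewpoints. It is in introns of both FGF1 and SPRY4-AS1. Contacts of SPRY4 with this site, widened by 5 kb on each side, were 277, 301 and 293 per kb in dTAG+I-BET cells, 336, 281 and 354 per kb in dTAG cells and 404, 318 and 395 per kb in DMSO cells. These values rest on 82 to 166 interactions in a library. The dTAG+I-BET libraries were all below DMSO, and the dTAG libraries overlapped both.

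For dTAG+I-BET over DMSO the log2 ratio at the cohesin-lost site was -0.35 (SE 0.12, 95% interval -0.61 to -0.09), with a limma adjusted p of 0.0562 over the 19 viewpoints that have such sites, of which 5.26% passed. The 1 viewpoint that passed was higher in dTAG+I-BET cells, opposite in sign to SPRY4. The SPRY4 ratio was the second lowest of the 19, whose median was -0.13. This value sits at the threshold: the adjusted p ranged from 0.0139 to 0.231 over 18 alternatives and was under 0.05 in 9 of them, among them edgeR (0.0486). For dTAG over DMSO the ratio was -0.20 (SE 0.12, 95% interval -0.46 to 0.06, adjusted p = 0.292), where 0% of the viewpoints passed, and it ranked 7th from the lowest. It was -0.27 without dTAG replicate 3 (limma adjusted p = 0.144) and ranked 2nd. For dTAG+I-BET over dTAG it was -0.15 (95% interval -0.41 to 0.11, adjusted p = 0.989), the lowest of the 19, where again 0% passed. It was -0.08 without dTAG replicate 3 and ranked 8th. The 10-kb bin that holds the site, 310 to 320 kb upstream, had 268, 309 and 264 per kb in dTAG+I-BET cells, 367, 290.2 and 313 per kb in dTAG cells, and 377, 384 and 385 per kb in DMSO cells. In this bin both treated groups lay below the DMSO libraries.

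**Figure D4:**
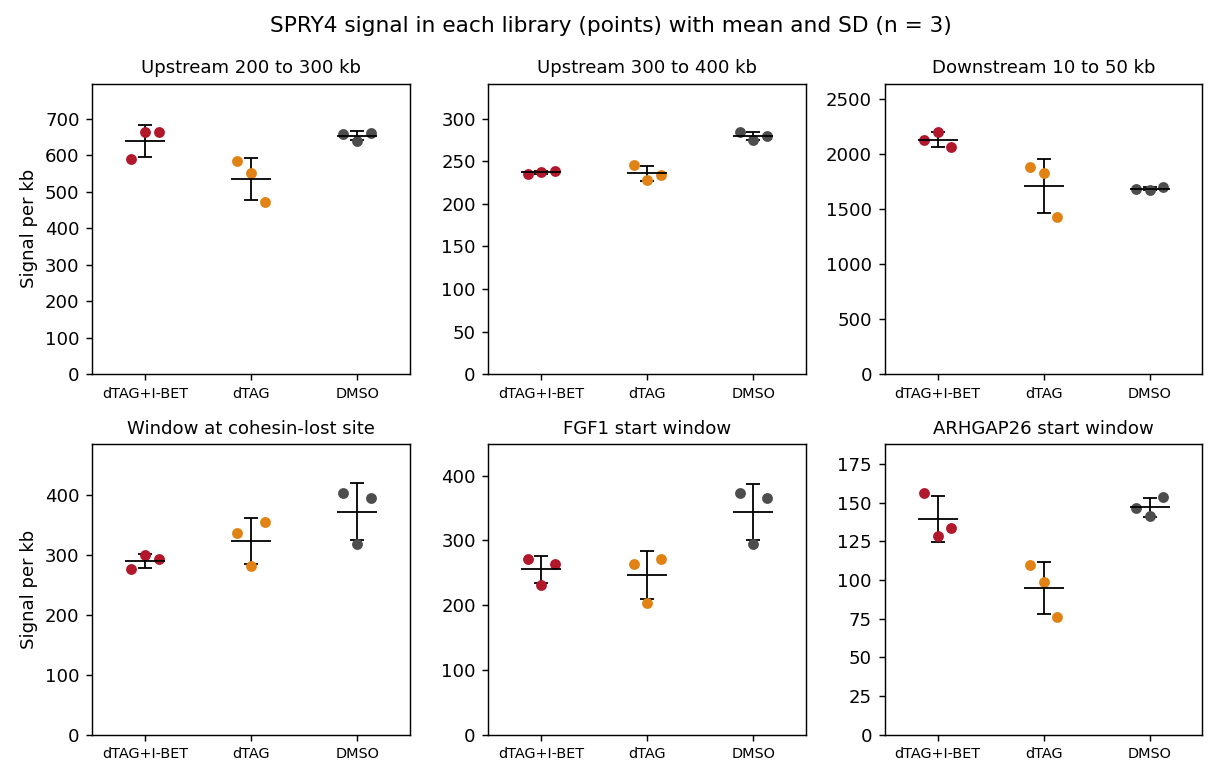
SPRY4 signal per kb in each library (points) with the group mean and SD (n = 3), for dTAG+I-BET, dTAG and DMSO cells, in 3 distance bands, at the cohesin-lost site widened by 5 kb, and within 5 kb of the starts of FGF1 and ARHGAP26; all axes begin at 0. At 300 to 400 kb upstream both treated groups (228 to 246 per kb) lie below the DMSO libraries (275 to 284 per kb), and at 10 to 50 kb downstream the dTAG+I-BET libraries lie above all others.

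Between 10 and 500 kb from SPRY4 lie the starts of 8 protein-coding genes. FGF1 and ARHGAP26 lie upstream. NDFIP1, GNPDA1, PCDH12, RNF14, DELE1 and PCDH1 lie downstream. PCDH1 and PCDH12 are protocadherins, RNF14 is a RING-type ubiquitin ligase, and DELE1 relays mitochondrial stress to the kinase HRI. Contacts were measured within 5 kb of each start. None of the 8 windows passed in any comparison, where 1.15% of the 174 windows of all viewpoints passed for dTAG over DMSO and 0.575% for each of the other comparisons. The DMSO means ranged from 117 per kb at PCDH1 to 344 per kb at FGF1. An unadjusted limma p was under 0.05 in 2 of the 8 windows for dTAG over DMSO, and in 24 of all 174. It was under 0.05 in 1 of the 8 for each of the other comparisons. Of all 174 windows, 23 had such a p for dTAG+I-BET over DMSO and 11 for dTAG+I-BET over dTAG.

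The window at the FGF1 start, 372 kb upstream, had the highest signal. It was 271, 232 and 264 per kb in dTAG+I-BET cells, 264, 204 and 271 per kb in dTAG cells, and 374, 294 and 365 per kb in DMSO cells. Both treated groups lay below the DMSO libraries. The log2 ratio was -0.42 for dTAG+I-BET over DMSO (SE 0.19, 95% interval -0.83 to -0.02, limma adjusted p = 0.342) and -0.49 for dTAG over DMSO (SE 0.19, 95% interval -0.89 to -0.08, adjusted p = 0.248).

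NDFIP1 and GNPDA1 followed FGF1 in signal. NDFIP1, 218 kb downstream, had 327, 257 and 193 per kb in dTAG+I-BET cells, 239.8, 271 and 233 per kb in dTAG cells, and 293, 277 and 275 per kb in DMSO cells. GNPDA1, 313 kb downstream, had 170.3, 239 and 193 per kb in dTAG+I-BET cells, 202, 187 and 258 per kb in dTAG cells, and 262, 231 and 330.2 per kb in DMSO cells. For GNPDA1, dTAG+I-BET over DMSO had a log2 ratio of -0.45 (95% interval -0.90 to 0.005, limma adjusted p = 0.348). For NDFIP1, all dTAG libraries were below DMSO, with a log2 ratio of -0.18 (95% interval -0.62 to 0.25, limma adjusted p = 0.752). In the other comparisons of these windows the groups overlapped.

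ARHGAP26, 444 kb upstream, had the lowest unadjusted p of the 8 windows for dTAG over DMSO (0.00415). Its mean was 94.9 ± 17.0 per kb in dTAG cells and 147 ± 6.2 per kb in DMSO cells (SD, n = 3 each), with a log2 ratio of -0.64 (SE 0.18, 95% interval -1.04 to -0.24, limma adjusted p = 0.120). The window held 18 to 47 interactions in a dTAG library. The dTAG+I-BET mean was 139.6 ± 14.8 per kb, and its log2 ratio over dTAG was 0.56 (SE 0.18, adjusted p = 0.339). Over the part of the ARHGAP26 gene within 500 kb, the means were 123 per kb in dTAG+I-BET cells, 143 per kb in dTAG cells and 136 per kb in DMSO cells, with overlap of all groups there. For PCDH12, RNF14, DELE1 and PCDH1, group means lay between 117 and 179 per kb and log2 ratios between -0.18 and 0.17 in the 3 comparisons.

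Over whole genes, the FGF1, NDFIP1 and GNPDA1 bodies had lower values in both treated groups, with no overlap with DMSO. Gene bodies were not summed at the other viewpoints, so whether this is unusual cannot be told. For scale, 10.1% of all 10-kb bins were lower without overlap for dTAG over DMSO, and 11.2% for dTAG+I-BET over DMSO. The FGF1 body had 275, 296 and 284 per kb in dTAG+I-BET cells, 287, 278 and 279.6 per kb in dTAG cells, and 347, 333 and 349 per kb in DMSO cells. The log2 ratios of the means over DMSO were -0.27 for dTAG+I-BET and -0.28 for dTAG, each at the smallest exact two-sided p of 0.1. GNPDA1 had 209, 178 and 232 per kb in dTAG+I-BET cells, 216, 230.1 and 221 per kb in dTAG cells, and 268, 247 and 302 per kb in DMSO cells, with ratios of -0.40 and -0.29 over DMSO (exact two-sided p = 0.1 each). NDFIP1 had 298 ± 4, 334 ± 6 and 360 ± 16 per kb in dTAG+I-BET, dTAG and DMSO cells (SD, n = 3 each), and no 2 groups overlapped (exact two-sided p = 0.1 for each pair). The SPRY4-AS1 body, 335.55 kb of which was counted, had 795 ± 29, 674 ± 132 and 770 ± 67 per kb in dTAG+I-BET, dTAG and DMSO cells. There dTAG and DMSO overlapped (exact two-sided p = 0.4). The SPRY4 body beyond 10 kb from its start had 3309, 3397 and 3473 per kb in dTAG+I-BET cells, 2978, 2864 and 2515 per kb in dTAG cells, and 2978, 2785 and 2753 per kb in DMSO cells. The dTAG+I-BET libraries lay above the others, with log2 ratios of 0.28 over dTAG and 0.26 over DMSO (exact two-sided p = 0.1 each). In the other 5 gene bodies, the treated groups overlapped DMSO. These sums over 10 gene bodies were added after the data were seen.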

How the data were processed

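Capture-C with DpnII was performed in 3 libraries per group. According to the methods, the authors processed reads with CapCruncher on hg38, and bcl2fastq 2.17 is listed in the submitters' processing notes. The deposited signal values are numbers of interactions per DpnII fragment, which the authors brought to nearly equal sums over the chromosome of each viewpoint in every library. All 102057804 values were checked, and 100% were whole multiples of the value of 1 interaction (tolerance 0.01), so that interaction numbers were recovered. No column of values lacked a sample (0 columns).

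Signals were summed by fragment midpoint into 10-kb bins, 12 distance bands, windows of 5 kb on each side of gene starts and of cohesin-lost sites, between 10 and 500 kb of each viewpoint, and divided by length. Log2 of signal per kb plus 1 was fitted with limma 3.58.1 (R 4.3.3) over all 9 libraries, which share 1 estimate of the spread, with Benjamini-Hochberg adjustment over all viewpoints and a threshold of 0.05. Ratios are on this log2 scale. All adjusted p-values are from limma unless edgeR 4.0.16 (quasi-likelihood test on recovered interactions) is named; edgeR called 0 SPRY4 bins in each comparison. Side ratios and gene bodies were compared by exact permutation with numpy 2.4.6 in Python 3.11.15. Fits were tested on simulated data. Annotation was GENCODE v44.

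Named bins were those with the 3 lowest and 3 highest ratios per comparison where none passed, the bin of the cohesin-lost site and the 5 bins furthest above the other viewpoints in DMSO. Named genes were the protein-coding genes starting 10 to 500 kb from SPRY4, with values in every library for the 3 of highest DMSO signal, and genes holding named bins. The region, lists and tests were chosen with earlier results of these data known. Alternatives were other pseudocounts, low-signal filters, bin and window sizes, rescaling, edgeR, a replicate block, fits of only the groups compared, and leaving out each library. Intervals cover the spread between libraries, and fragment counts carry counting error only.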

Additional observations from a re-analysis of the deposited data

How the results depend on the processing

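Most SPRY4 results kept their side of the threshold. Of the alternatives for the main results, 214 left the value alike, 8 moved a count and 9 took a value past the threshold. Side ratios counted as alike when they moved by less than the SD within groups, even where the sign turned. Of the alternatives for single bins, bands and windows, 726 left the value alike, 13 took it past the threshold and 1 reversed it. Ratios smaller than their SE were left out of the latter counts. Among these was 10 to 50 kb upstream for dTAG over DMSO, -0.10 with and 0.14 without dTAG replicate 3. With totals from 10 to 1000 kb set equal between libraries, 1 band passed for dTAG over DMSO (200 to 300 kb upstream), and 2 bins (310 to 320 kb upstream, lower, and 40 to 50 kb downstream, higher) and 3 bands (300 to 400 kb upstream and 200 to 300 kb downstream, lower, and 10 to 50 kb downstream, higher) for dTAG+I-BET over DMSO. With only dTAG+I-BET and DMSO fitted, 4 bins and 2 bands passed, and the same numbers passed without dTAG replicate 3. For the alternatives, the shares of all bins and bands that passed were not counted. In the main fit of dTAG+I-BET over DMSO these shares were 4.9% and 7.5%. Whether the SPRY4 counts exceed the shares under the same alternative therefore cannot be told. The median log2 ratio of all bins was -0.02 with equal totals and -0.07 without for dTAG over DMSO, -0.02 and 0.02 for dTAG+I-BET over DMSO, and -0.002 and 0.09 for dTAG+I-BET over dTAG. The cause of these differences was not tested.

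For dTAG+I-BET over DMSO, the log2 ratio at the cohesin-lost site passed with rescaling (-0.41, limma adjusted p = 0.0336), with the replicate block (-0.35, 0.0305), with only the 2 groups compared (-0.35, 0.0183), with edgeR (-0.34, 0.0486), with windows of 10 kb (-0.40, 0.0457) and with sites up to 1000 kb (-0.38, 0.0499). It also passed without DMSO replicate 2 (-0.46, 0.0430), dTAG replicate 2 (0.0489) or dTAG replicate 3 (0.0139).

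Leaving out 1 library at a time gave 0 to 1 bands called for dTAG over DMSO, and 0 to 4 bins and 0 to 2 bands for dTAG+I-BET over DMSO. The count of 1 band and the highest counts of bins and bands were without dTAG replicate 3. The cohesin-lost site then ranged from -0.46 to -0.29 for dTAG+I-BET over DMSO. The ratio of dTAG+I-BET over dTAG at 10 to 50 kb upstream, 0.22, was -0.027 without dTAG replicate 3 and 0.34 without dTAG replicate 1.

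The replicate numbers were not taken to pair the samples, as not every same-numbered pair correlated above 0.1. Correlations of their deviations from the group means were 0.0309, 0.111 and 0.233 for DMSO and dTAG, and -0.0638 to 0.0183 for pairs with dTAG+I-BET. The side ratios of same-numbered DMSO and dTAG libraries did move together, with differences of -0.21, -0.20 and -0.20. With the replicate block, 0 SPRY4 bins, bands and gene windows passed in each comparison. Depth limits single bins (median 101 interactions) more than bands, and the fits had a median SE of 0.19 on the log2 scale for bins.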
